A study of Rattus norvegicus with 4 samples.

Results

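Skeletal muscle fibres release calcium to contract, take it back up to relax, and rebuild ATP from stored phosphate, glycogen and oxygen. The genes described here are 10 of those that muscle fibres use for this work, chosen by name: Atp2a1, Casq1, Cacna1s and Pvalb for calcium, Mb for oxygen, Ckm and Ckmt2 for creatine phosphate, and Eno3, Pygm and Pgam2 for glycogen and glycolysis. Of the 10, 8 had a value among the 14485 gene names analysed. Atp2a1, the calcium pump of fast fibres, and Cacna1s, the voltage sensor of the muscle calcium channel, had no row under a present or older symbol and are not analysed here.

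Their messenger RNA was measured by RNA sequencing in a pool labelled eye and a pool labelled retina. The rats were wild-type Long Evans, which are pigmented, and the labels name no treatment or age. The labels list 2 technical replicates for each of the 2 tissues and RNA of 5 rats in each pool, and 1 column of values was analysed per tissue, called its library here. With 1 pool per tissue the differences have no replicate check and no p-value. The sample descriptions speak of retina mRNA for the eye samples too, and the libraries are named here by their tissue label.

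Values are taken as RPKM, reads scaled to the length of the gene model and to the reads of the library, a unit inferred from the numbers. Whole reads could be worked out from them, out of totals of 28071917 reads for eye and 51944762 for retina. Intervals in brackets are exact 95% intervals on those reads (Clopper-Pearson). They cover counting error only, as PCR copies cannot be told from separate molecules, and they compare the 2 libraries rather than the tissues. Beside the retina, an eye holds the iris and the ciliary muscle and can be taken with the muscles that move it, on which the labels say nothing. In bulk RNA fewer cells of a kind and less RNA per cell cannot be told apart.

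Many of these proteins exist in a muscle form and in one or more forms used elsewhere. Skeletal muscle uses the M-type creatine kinases, beta-enolase, muscle glycogen phosphorylase and the M-type phosphoglycerate mutase, while neurons use the B-type creatine kinase, gamma-enolase and brain glycogen phosphorylase. Calsequestrin and parvalbumin both bind calcium, the former inside the sarcoplasmic reticulum and the latter in the cytosol, and parvalbumin is also a classical marker of certain neurons, in rat retina of a class of amacrine cells.

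All 8 genes had their higher value in the eye library. For 7 of them the fold ran from 6.04 for Pvalb to 1738 for Mb, and the other, Ckmt2, was listed at 0 in retina. All 8 were at least 2-fold higher on the scale log2((eye + 0.1) / (retina + 0.1)), against 17.8% of the 13259 genes tested (those that reached a value of 1 in one or both libraries), and all 8 were at least 4-fold higher, against 9.07%. Their median on that scale was 4.72, or 4.09 over the 7 without Ckmt2, beside -0.01 over all genes tested. Their summed value was 1580 in eye and 90.1 in retina, 0.302% and 0.0269% of the sum over all genes. They were chosen with earlier results of these libraries known, so these counts describe the 8 genes and are no independent evidence about muscle genes as a class.

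**Figure D1:**
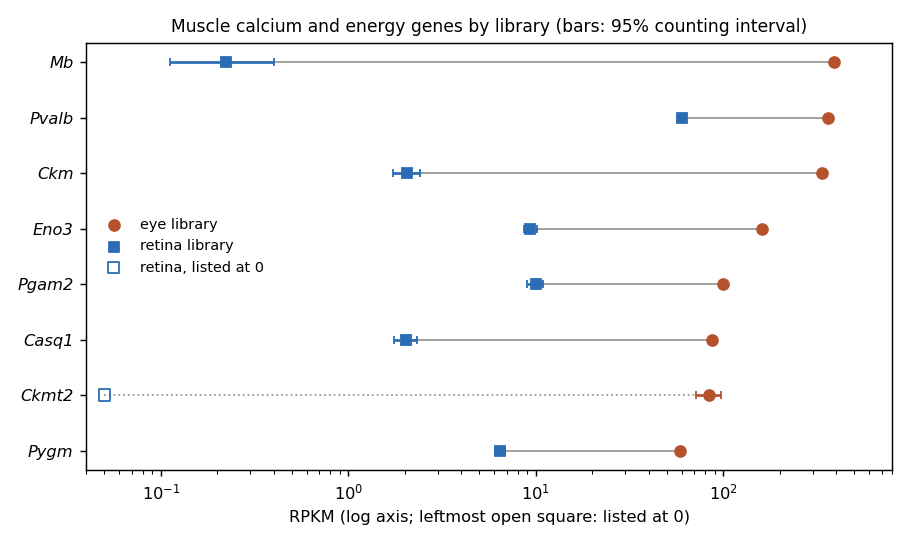
RPKM of the 8 genes (log axis) in the eye library (circles) and the retina library (squares), with 95% counting intervals where they exceed the symbol; the open square marks Ckmt2, listed at 0 in retina. In eye the genes lie between 58.6 and 389, while in retina they spread from 0.224 for Mb to 60.01 for Pvalb.

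The promoters of 5 of these genes are printed because they carry the sequence features described next. Each is the 250 bases before the annotated start, from RefSeq on the rat build GRCr8, which differs from the rn4 build that the submitters' processing notes name. In the first 3, capitals mark E-boxes (CANNTG), the core that myogenic and other basic helix-loop-helix factors bind. In the last 2, capitals mark a run of bases common to both. The windows are chr1:88189211-88189460 on the plus strand for Ckm, chr14:84897875-84898124 on the minus strand for Pgam2, chr7:111666290-111666539 on the minus strand for Pvalb, chr7:110647743-110647992 on the minus strand for Mb and chr1:213119555-213119804 on the plus strand for Pygm.
Ckm: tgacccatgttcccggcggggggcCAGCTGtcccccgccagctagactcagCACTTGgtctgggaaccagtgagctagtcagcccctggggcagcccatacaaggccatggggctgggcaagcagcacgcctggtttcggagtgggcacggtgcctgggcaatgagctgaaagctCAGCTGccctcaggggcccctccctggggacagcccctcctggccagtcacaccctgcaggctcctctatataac
Pgam2: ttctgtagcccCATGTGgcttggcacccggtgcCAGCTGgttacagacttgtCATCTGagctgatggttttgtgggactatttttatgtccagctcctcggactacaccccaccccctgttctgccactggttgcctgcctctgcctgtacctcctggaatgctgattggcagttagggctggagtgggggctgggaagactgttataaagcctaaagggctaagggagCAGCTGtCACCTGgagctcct
Pvalb: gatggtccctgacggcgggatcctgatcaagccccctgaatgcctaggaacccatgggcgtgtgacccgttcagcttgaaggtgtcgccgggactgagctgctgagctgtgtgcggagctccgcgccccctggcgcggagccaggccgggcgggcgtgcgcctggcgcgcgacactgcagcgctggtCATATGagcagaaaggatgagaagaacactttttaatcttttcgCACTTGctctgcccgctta
Mb: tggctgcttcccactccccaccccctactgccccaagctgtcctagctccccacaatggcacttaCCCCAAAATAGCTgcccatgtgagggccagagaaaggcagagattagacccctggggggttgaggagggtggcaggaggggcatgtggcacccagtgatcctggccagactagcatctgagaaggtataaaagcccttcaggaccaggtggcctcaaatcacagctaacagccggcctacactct
Pygm: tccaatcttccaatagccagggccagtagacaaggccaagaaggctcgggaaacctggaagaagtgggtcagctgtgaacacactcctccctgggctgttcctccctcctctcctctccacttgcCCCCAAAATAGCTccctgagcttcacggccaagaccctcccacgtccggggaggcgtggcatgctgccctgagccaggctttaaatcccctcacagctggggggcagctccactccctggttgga

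An E-box stood in the promoters of all 8 genes, and in 65.5% of all 33469 promoters of the same length. Its form CAGCTG, looked for after the sequences were seen, stood in 5 of the 8 (Casq1, Ckm, Ckmt2, Pygm and Pgam2), against 12.0% of all promoters, and not in those of Pvalb, Mb and Eno3. Ckm held it at 75 and 226 bases before the start and Pgam2 at 21 and 217. Mb and Pygm shared CCCCAAAATAGCT, 185 and 125 bases before their starts. It was picked after the sequences were seen, as the longest run common to these 2 promoters, so both matches were fixed by the choice. No other of the 33469 promoters held it on either strand, and how often a run of such length would recur was not tested.

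Of the other motifs searched on both strands, CATTCC (the MCAT element of muscle genes) was found in 2 promoters (Eno3 and Pgam2; 12.1% of all), TATAAA in 2 (Mb and Pgam2; 12.9%) and GGGCGG (the GC box) in 3 (Casq1, Pvalb and Ckmt2; 30.5%). The MEF2 site, searched as YTAWWWWTAR, and the CArG box, as CCWWWWWWGG, were found in 0 of the 8. The shares over all promoters were 2.96% and 1.497%. Here W is A or T, Y is C or T and R is A or G. Only exact matches were counted, so near matches such as CTATTTTTAT in Pgam2 and CCAAAATAGC in Mb and Pygm were left out. Every CAGCTG is also a CANNTG. A match describes these letters only, and says nothing of binding.

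The 2 calcium binding genes stood far apart in retina. Casq1, the calsequestrin of fast fibres, had a value of 86.8 in eye and 2.02 in retina, resting on 4504 and 194 reads. It was 43.0-fold higher in eye (37.2 to 49.9), and its retina level was 2.33% of its eye level.

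Pvalb, the cytosolic calcium buffer of fast fibres, stood at 363 in eye and 60.01 in retina, on 5476 and 1677 reads. That is a 6.04-fold difference (5.72 to 6.39), the smallest of the 7 that could be computed, and its interval did not overlap that of the next gene. In retina it was the most abundant of the 8 genes and made up 66.6% of their summed value, against 22.9% in eye. It ranked 945th of all genes in retina and 84th in eye.

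Mb encodes myoglobin, which stores oxygen in red and heart muscle. It had the highest eye value of the 8, 389, and a retina value of 0.224, on 10332 and 11 reads. The fold of 1738 (971 to 3483) was the largest among the 7, and the few retina reads make its interval wide. With 1 added to each value in place of 0.1, its log2 fold was 8.31 instead of 10.23.

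Creatine kinases move phosphate between creatine and ATP. Ckm, the cytosolic muscle form, was at 339 in eye and 2.05 in retina, on 13403 and 150 reads, 165-fold higher in eye (141 to 196). Ckmt2, the mitochondrial form of striated muscle, had a value of 83.8 in eye, and its retina value is listed at 0. No fold is given for it, since a 0 in these files can be a failed estimate: Hadha, a gene of mitochondrial fat oxidation that most cells use, was listed at 0 in both libraries.

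Genes of glycogen use and glycolysis differed by smaller folds than Mb, Ckm and Casq1. Pygm, which releases glucose phosphate from muscle glycogen, was at 58.6 in eye and 6.45 in retina, from 4676 and 952 reads, a fold of 9.09 (8.48 to 9.75). Pgam2, the muscle phosphoglycerate mutase, was at 99.96 in eye and 9.98 in retina, from 2214 and 409 reads, a fold of 10.02 (9.01 to 11.2). These 2 intervals overlapped, so their order cannot be told from counting error.

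Eno3, muscle beta-enolase, was at 161 in eye and 9.38 in retina, from 6497 and 699 reads, a fold of 17.2 (15.9 to 18.6). On GRCr8 the Eno3 gene overlaps Spag7, which was at 46.0 (eye) and 39.9 (retina), and no source used here says whether strand was used in counting. The part of Spag7 reads in the Eno3 values was not tested. The other genes with values overlap no protein-coding gene there.

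Ordered by fold, the genes ran from Pvalb through Pygm and Pgam2 to Eno3, Casq1, Ckm and Mb, and the Pygm and Pgam2 pair was the only one of the 6 neighbouring pairs whose intervals overlapped. By function, the sum over the 2 creatine kinases in retina was 0.485% of that in eye, the sum over the 3 glycogen and glycolysis genes 8.07%, and the sum over the 2 calcium binding genes 13.8%, which Pvalb dominates. The creatine kinase sum counts Ckmt2 at its listed 0 in retina, and for Ckm alone the percent was 0.605%. In retina, the intervals of the levels of Pgam2 and Eno3 overlapped, as did those of Ckm and Casq1. That of Mb (0.112 to 0.400) lay inside the range up to 1.04 that a true count of 0 would allow for Ckmt2. In eye, the intervals of Casq1 and Ckmt2 overlapped. Both statements on Ckmt2 rest on the smallest model length that fits, 68 bases. A longer one would lower the bound of 1.04 and narrow the Ckmt2 interval in eye, so neither comparison is settled.

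Markers of the cells that could carry these genes were set beside them. All 11 fast sarcomere genes were higher in eye, with a median of 6.83 on the log2 scale. Acta1 (skeletal alpha-actin), Mylpf and Myl1 (myosin light chains) were the most abundant, at 551, 540 and 466 in eye and 5.06, 4.66 and 0.0192 in retina. All 8 slow sarcomere genes were higher too, with a median of 6.27, led by Tnnc1 (45.3 and 3.53), Tnnt1 (40.4 and 0.219) and Mybpc1 (33.8 and 0.877), but their summed eye value was 183 against 2890 for the fast genes. The fast sarcomere sum in retina was 12.1, and 9 of the 11 genes were below 1 there. Of the slow genes, Myl3 and Myoz2 were listed at 0 in retina.

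Seen as a percent of the eye level, the retina level of the 11 fast sarcomere genes ran from 0.00413% to 3.28%, the highest being Actn3 (interval 2.69% to 3.96%). Mb at 0.0575%, Ckm at 0.605% and Casq1 at 2.33% lay inside that range. Eno3 at 5.81% (5.37% to 6.29%), Pgam2 at 9.98% (8.96% to 11.1%), Pygm at 11.0% (10.3% to 11.8%) and Pvalb at 16.6% (15.7% to 17.5%) lay above all 11. Thus 4 of the 7 genes with a retina value held more of their eye level in retina than any fast sarcomere gene measured, and their intervals lay above those of all 11. Slow sarcomere genes reached further, up to 28.9% for Myh7, the slow myosin heavy chain, at 2.38 in eye and 0.686 in retina. Such percents were also common in lists of related function, over genes with values above 0. For triad and sarcoplasmic reticulum genes the median was 23.1% (range 0.0921% to 143%). It was 8.66% for phosphate buffering, oxygen and fat use (0.108% to 132%) and 75.3% for glycogen and glycolysis (0.185% to 170%).

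**Figure D2:**
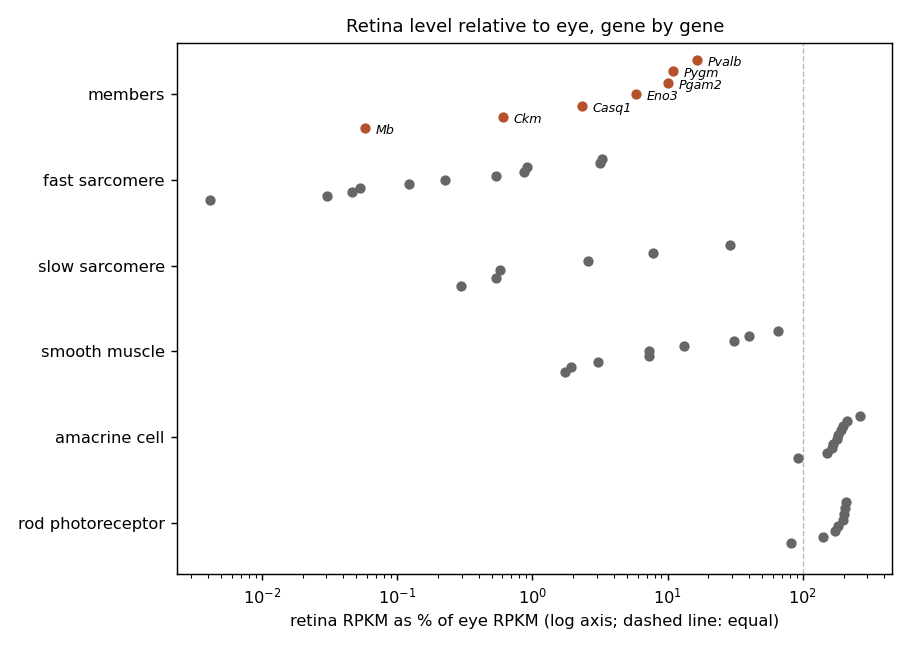
Retina RPKM as a percent of eye RPKM (log axis) for each gene with a value above 0 in both libraries; each point is 1 gene, the named points are the muscle calcium and energy genes, and the dashed line marks equal levels. Pvalb, Pygm, Pgam2 and Eno3 lie to the right of all fast sarcomere genes, while Mb, Ckm and Casq1 lie among them.

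Smooth muscle genes, which iris, ciliary muscle and vessels express, were higher in eye in 7 of 8 cases, with a median of 3.60 and summed values of 209 and 17.4; Tagln was at 115 in eye and 8.37 in retina, Des, which striated muscle also expresses, at 41.0 and 0.790, and Myh11 at 18.7 and 2.46. Of 10 amacrine cell genes, the class that holds the parvalbumin neurons of the retina, 0 were higher in eye and 2 lower, with a median of -0.85. Calb2, Slc6a9 and Gad1, genes of calretinin, glycine uptake and GABA synthesis, were at 402, 140 and 103 in retina and 246, 66.2 and 57.2 in eye. Of 8 rod genes 0 were higher and 3 lower, with a median of -0.92, and Gnat1, Prph2 and Sag were at 7967, 3099 and 3067 in retina and 3959, 1565 and 1776 in eye. Under totals without lens genes 0 rod genes and 1 amacrine gene were lower in eye, and with equal summed values 7 and 9 were. The part of any of these cells in the levels of the muscle calcium and energy genes was not tested.

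Each gene was next set beside its paralogs, the related genes that do the same work in other cells. Of these families, the globins differed most between libraries in the percentage held by the muscle form. Mb made up 84.7% of the summed value of Mb, Ngb and Cygb in eye and 0.180% in retina. Cytoglobin (Cygb), a globin of many cell types, was at 58.0 (eye) and 105 (retina), and neuroglobin (Ngb), of neurons, at 12.0 and 19.6. Mb was 6.70 times Cygb in eye (6.45 to 6.97), and in retina Cygb was 468 times Mb (262 to 938).

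Among cytosolic creatine kinases Ckm held 45.7% in eye and 0.268% in retina. Ckb, the brain form, was at 402 in eye and 762 in retina. Thus the muscle and brain forms were near in the eye library, at 0.842 Ckm per Ckb (0.823 to 0.861), while retina held 372 times as much Ckb as Ckm (317 to 440). The summed value of both differed little, 741 in eye and 764 in retina. Among the mitochondrial forms Ckmt2 held 62.3% in eye, and the ubiquitous form, listed as Ckmt1b, had values of 50.7 in eye and 88.4 in retina.

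The enolases kept their neuronal member in front in both libraries. Eno2, gamma-enolase, was at 299 (eye) and 615 (retina), and Eno3 held 31.3% of the 3 enolases in eye and 1.34% in retina. Eno2 was 1.85 times Eno3 in eye (1.80 to 1.91) and 65.6 times in retina (60.8 to 70.7). Eno1, alpha-enolase, was at 55.7 and 74.4, but 31 pseudogenes are named after it in RefSeq, so its values are uncertain, and the part of shared reads in them was not tested.

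Glycogen phosphorylases were more mixed. Pygm held 44.8% of the 3 in eye and 10.3% in retina. Pygb, the brain form, was at 39.6 (eye) and 46.9 (retina), and Pygl, the liver form, at 32.6 and 9.33, so Pygl too was higher in eye, by 3.49-fold (3.27 to 3.74). Pygm was 1.48 times Pygb in eye (1.40 to 1.56), and Pygb 7.28 times Pygm in retina (6.78 to 7.81).

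Pgam2 held 81.0% of the phosphoglycerate mutases in eye and 32.7% in retina. Pgam1, the form of most other tissues, was at 23.5 in eye and 20.6 in retina, a fold of 1.14 (0.887 to 1.46) that falls below 1 with equal summed values. Pgam2 was 4.26 times Pgam1 in eye (3.51 to 5.23), and Pgam1 was 2.06 times Pgam2 in retina (1.71 to 2.47). RefSeq names 13 pseudogenes after Pgam1, so its level, and the shares that rest on it, are uncertain. The Pgam1 reads, 106 in eye and 172 in retina, are the smallest that fit, at a model length of 161. True reads may be a multiple, which would make the intervals that use Pgam1 narrower.

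The calcium binding families behaved in another way, with Casq1 and Pvalb ahead in both libraries. Neither family sets a muscle form against a form of neurons or of most cells. Casq2 is itself a muscle form, and Pvalb is also a marker of neurons. Casq1 held 94.3% of the calsequestrins in eye and 90.5% in retina, and Casq2, the heart and slow fibre form, was also higher in eye, at 5.20 against 0.212, a fold of 24.6 (16.6 to 37.9). Pvalb held 97.0% of the parvalbumins in eye and 99.95% in retina. Ocm, oncomodulin, a parvalbumin known from hair cells of the ear, was at 11.1 in eye and 0.0293 in retina, where it rested on 1 read.

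**Figure D3:**
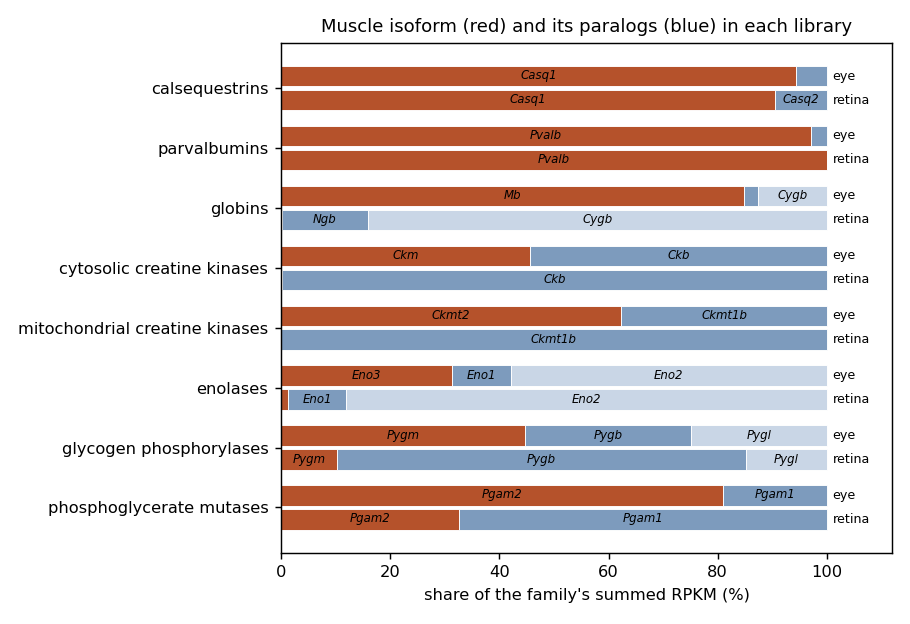
Share (%) of each gene family's summed RPKM in the eye library (upper bar of each pair) and the retina library (lower bar); red is the muscle form and blue shades are its paralogs. The red share is much smaller in retina for globins (84.7% and 0.180%), creatine kinases, enolases, phosphorylases and mutases, but not for calsequestrins (94.3% and 90.5%) and parvalbumins. The paralogs in those last families are Casq2, of heart and slow fibres, and Ocm, known from hair cells.

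Paralogs of the 2 genes without a row were also measured. Atp2a2, the calcium pump of slow fibres, heart and most other cells, was at 55.7 in eye and 61.9 in retina, a difference that changed sign when the library totals were taken without lens genes. Atp2a3 was at 2.96 and 0.654, 4.53-fold higher in eye (3.07 to 6.79). Among L-type calcium channels, Cacna1f, the photoreceptor form, was at 30.7 (eye) and 104 (retina) and Cacna1d at 2.97 and 6.08, both at least 2-fold lower in eye, beside 7.95% of all genes tested. Cacna1c was at 1.06 and 1.21 and was not called. Eno2 was lower in eye as well, and neither Eno2 nor Cacna1d was called under totals without lens genes. When summed values were made equal, Ngb, Cygb, Ckb, Ckmt1b and Eno1 were called lower in eye, while as deposited they were not called.

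The other genes of calcium release and uptake were less uniform. Of 17 triad and sarcoplasmic reticulum genes, 11 were higher in eye and 0 lower, with a median of 2.42. The most abundant 3 were not called: Fkbp1a was at 88.8 in eye and 62.3 in retina, Tmem38a at 40.8 and 25.7, and S100a1 at 39.0 and 30.5. Picked after their values were seen, Hrc and Srl, proteins of the reticulum lumen, were 142-fold (96.1 to 221) and 155-fold (111.6 to 222) higher, close to Ckm, and Trdn, which ties calsequestrin to the release channel, was at 9.90 in eye and 0.00912 in retina. Cacng1, a subunit of the muscle calcium channel, had an eye value of 5.26 and is listed at 0 in retina.

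Of 19 genes of glycogen use and glycolysis, 6 were higher in eye and 0 lower, with a median of 0.41. With equal summed values 4 were higher and 4 lower. Ppp1r3a and Fbp2 then fell below the minimum value and were not tested, with log2 folds of 3.27 and 2.33. Aldoa, Gpi and Pgk1, enzymes of glycolysis in all cells, were not called, at 521, 271 and 402 in eye and 712, 420 and 279 in retina. The 6 were Phkg1 and Ppp1r3a, regulators of glycogen breakdown and synthesis in muscle, Gyg1, Fbp2, Gpd1 and Ugp2. Phkg1, the phosphorylase kinase subunit that acts on Pygm, was 12.8-fold higher (8.14 to 21.0) and Gyg1, which primes glycogen, 3.50-fold (3.25 to 3.76).

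Of 13 genes of phosphate buffering, oxygen and fat use, 8 were higher in eye and 0 lower, with a median of 3.14. Slc25a4, the ATP carrier of mitochondria, was at 644 (eye) and 443 (retina) and Fabp3 at 50.7 and 27.1, neither called. With equal summed values the differences of Slc25a4, Pgk1, Fkbp1a and S100a1 changed sign. Cox6a2, a respiratory chain subunit of striated muscle, was at 118 in eye and 0.128 in retina, a fold of 924 (316 to 4485), which overlaps the interval of Mb. Ampd1, the muscle AMP deaminase, was 42.4-fold higher (21.9 to 93.9), near Casq1.

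**Figure D4:**
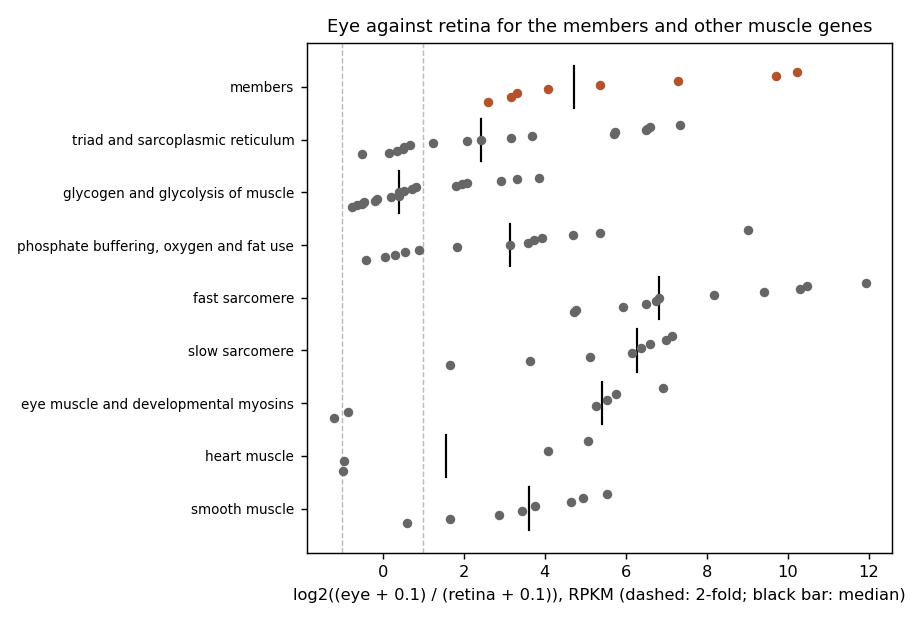
Log2((eye + 0.1) / (retina + 0.1)) of RPKM for each gene tested, by gene list; black bars are medians and dashed lines mark 2-fold. All 8 muscle calcium and energy genes lie above the 2-fold line, with a median of 4.72, between those of the fast sarcomere genes (6.83) and of the triad genes (2.42).

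The genes nearest in level to each were sought by distance on the log2 scale over the 2 libraries. For Mb it was Tnnt3, fast troponin T, at a distance of 0.088, with levels of 387 in eye and 0.205 in retina. Pygm lay nearest to Col6a2, a collagen VI chain (61.2 and 6.39, distance 0.062). Eno3 lay nearest to Sh3bgr (151 and 9.84, distance 0.12). These distances take no account of counting error. In retina Mb rested on 11 reads and Tnnt3 on 8, so which gene lies nearest to Mb is uncertain. Pgam2 lay nearest to Glrx, glutaredoxin (98.9 and 11.6, distance 0.22), and Casq1 to Ifi27l2b (93.2 and 1.71, distance 0.25). None is given for Ckmt2, whose retina value is listed at 0. Pvalb and Ckm had no gene as close, the nearest being Dbi (288 and 54.6, distance 0.36) and Emp1 (410 and 1.28, distance 0.70). With 2 libraries, such likeness describes only 2 levels.

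The eye library carried the markers of its other tissues. All 7 genes of cornea and conjunctiva (Krt12, Aldh3a1 and Krt13 the most abundant) were higher in eye, as were 16 of 17 lens genes (Crygd, Cryba1 and Crygb), with medians of 9.36 and 6.71. All 6 myelin genes reported were higher too, with a median of 3.53 and summed values of 250.1 and 27.9, among them Mal (101.3 and 0.869), Pmp22 (65.6 and 21.7) and Mbp (60.1 and 2.72), and 4 of the 6 were with equal summed values. The part of these tissues in the levels of the muscle calcium and energy genes was not tested. Over all genes tested, 2366 were at least 2-fold higher in eye and 1054 lower, so that 69.2% of the calls were higher. That share was 83.6% under totals without lens genes, a shift of 0.19 on the log2 scale, and 24.4% with equal summed values, a shift of -0.64. The totals without lens genes leave out only the 18 of 26 listed lens genes that had a value. All 8 muscle calcium and energy genes were called higher under each of these scalings.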

How the data were processed

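Per the labels, each library was made from pooled RNA of 5 rats, and per the submitters' processing notes GSNAP, HTSeq and the build rn4 were used; no source used here gives versions, settings, annotation, strand use or whether a column joins both technical replicates. The values deposited by the authors are taken as RPKM, a unit inferred from the numbers. Of 14533 rows per file 7 held ND, and of 41 names on several rows the value with most decimals was kept. Samples were grouped by title.

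If a value is whole reads over length and library total, low values give the ratio of the totals and short genes the totals themselves. The totals given in the results were those that most genes fitted (6547 of 10517; 3546 fitted their double, the next most common). All 13978 genes searched then had whole reads, to within 0.51 of the last printed decimal. These are the smallest that fit, with a model length of at least 60, and true reads may be a multiple (Ckmt2, with 160, and Pgam1 gave very short model lengths), which would make the counting intervals narrower. For 507 names with few decimals no reads were sought.

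A gene was tested if either of its values reached 1 and called at 2-fold; adding 0.1 understates folds of low genes, and folds of named genes are ratios without it. The members, lists, families and settings were chosen with earlier results of these data known. The lists cover the triad and sarcoplasmic reticulum, glycogen and glycolysis, phosphate buffering, oxygen and fat use, fast and slow sarcomere, eye muscle and developmental myosins, myogenic factors and endplate, heart and smooth muscle, rods, amacrine cells, lens, cornea and conjunctiva, and myelin; 1 listed gene is not reported here. Named are all members and their paralogs, the 3 genes of each list with the highest mean, those called against most of their list, and the gene nearest to each member; others were picked after their values were seen. Older symbols (Ryr1, Pkm, Ckmt1 and Tfap2b among them) were matched through RefSeq synonyms. Python 3.11.15, pandas 2.3.3 and scipy 1.17.1 were used, and the computation was tested on simulated data.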

Additional observations from a re-analysis of the deposited data

How the results depend on the processing

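All 8 muscle calcium and energy genes were called higher in eye under each of the 10 alternatives (0.01 or 1 added to values, the minimum value dropped or raised to 5, 4-fold as the threshold, 4 other scalings, recovered reads). For the 7 genes without Ckmt2, 7 of these alternatives can move a fold. The resulting 49 log2 folds were compared with the distance from the middle of the log2 counting interval to its ends. Of them 34 moved by less than that distance, 15 by more and 0 changed sign. Their values ran from 1.95 (Pvalb, equal summed values) to 10.70 (Mb, 0.01 added). The log2 value of Ckmt2 was 6.41 with 1 added and 13.03 with 0.01 added, so its size is set by the added value. Over all genes, the number higher in eye was 1471 when the minimum was 5, 1203 when 4-fold was asked, and 1363 when summed values were made equal. The number lower was 655 when 1 was added, 12 when 4-fold was asked, 560 under totals without lens genes, and 4232 when summed values were made equal. Each alternative sets this by its construction, through fewer genes tested, a stricter threshold, a larger added value or a shifted ratio. Scaling cannot change a gene's share within its family. No paired analysis was possible because each tissue has 1 column of values, and for the same reason no replicate could be left out. Depth limits the retina value of Mb, with 11 reads.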

Other observations

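Some genes named for striated muscle had their higher value in retina, unlike all 8 muscle calcium and energy genes. Of 6 myosin heavy chain genes of eye muscle and development, 4 were higher in eye, led by Myh3 (16.3 in eye and 0.0351 in retina) and Myh13, the eye muscle form (11.0 and 0.106), with a list median of 5.41. Myh6, the cardiac form, was lower in eye, at 0.691 against 1.74, 2.51-fold (1.59 to 4.14), on 23 and 107 reads. Myh7b was at 1.90 and 3.51 and was not called.

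Of 4 tested heart muscle genes, 2 were higher in eye (Tnnt2, at 16.2 and 0.386, and Casq2) and 0 lower, with a median of 1.56. Nppa, the atrial natriuretic peptide, was at 1.84 and 3.69, and Ryr2, a calcium release channel of heart and brain, at 0.842 and 1.77. Ryr1, the release channel of skeletal muscle, was at 2.68 and 2.40, on 1097 and 1817 reads, and was not called. Its values stand under the older name Ryr1l, and whether that row covers the whole gene was not tested. Of 6 tested myogenic and endplate genes, 3 were higher and 0 lower, with a median of 2.13. The 3 were Myf6 (3.16 in eye and 0.102 in retina), Chrna1 (1.34 and 0.0474) and Myog (1.28 and 0.0133). Their retina values rested on 7, 4 and 1 reads. Mef2c, also a neuronal factor, was at 17.6 in eye and 22.5 in retina, Chrnb1 at 3.51 and 1.74, and Chrne at 1.48 and 2.13, none of them called. Without the added 0.1 the ratio of Chrnb1 was 2.01 (1.53 to 2.66). Under totals without lens genes 5 myogenic and endplate genes were higher, Chrnb1 and Myod1 among them, and 0 lower, and 3 heart genes were higher, Pln among them. Myod1 and Pln were not tested as deposited, since neither reached a value of 1. With equal summed values 1 myogenic or endplate gene was higher and 1 lower, and 2 heart genes were higher and 2 lower. Myog and Chrna1 left that count because they fell below the minimum value and were not tested. Their log2 folds there were 3.02 and 2.70. With equal summed values the difference of Ryr1 changed sign, and Myh7b, Nppa, Ryr2 and Chrne were called lower in eye.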
